A study of Mus musculus with 6 samples.

Results

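The genes described here are 10 markers of the endothelium, the cell layer that lines blood vessels, read in the mouse gastrocnemius, the large calf muscle, from the end of gestation to adulthood. They were chosen by gene symbol, as Pecam1, Cdh5, Kdr, Flt1, Tek, Tie1, Vwf, Eng, Emcn and Cd34, and all 10 were found among the 23367 gene entries of the table. The RNA came from wild-type FVB mice, an inbred strain, and was selected for poly(A) tails before sequencing. There were 6 libraries over 5 stages, with 1 library at embryonic day 18.5 (E18.5), 1 at postnatal day 2 (PN2), 1 at PN28, 1 from adults of 22 weeks and 2 replicates at PN14. The E18.5 library was a pool of male and female animals and the PN2 library a pool of males, while each later library came from a single male. The purpose of the series was to follow expression and splicing in skeletal muscle after birth.

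Endothelial cells respond to vascular endothelial growth factor (VEGF) through the receptor tyrosine kinases encoded by Kdr (VEGF receptor 2), which carries the main growth and permeability signal, and Flt1 (VEGF receptor 1), which binds VEGF tightly and acts largely as a decoy. The angiopoietins act on the receptor encoded by Tek (Tie2), with which the orphan receptor Tie1 associates, and set how quiescent a vessel is. In skeletal muscle, the capillaries run along the fibres and deliver oxygen and fatty acids.

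The members were read on 2 scales. FPKM, which scales fragments to gene length and to the fragments in the library, was used for levels and for ratios between genes. Fold changes were taken from expected counts with TMM scaling, edgeR's correction for libraries whose RNA is dominated by a few genes. The total count on genes was 125402932 to 157868359 per library, and the 20 most abundant genes took 16.0% to 36.9% of it. TMM factors went from 1.452 at E18.5 and PN2 to 0.7136 in the adult, so that the same counts gave a higher TMM level in the adult than at E18.5. With library size alone, the median gene of the 16882 tested moved by -0.66 on the log2 scale from PN2 to PN14 and by -1.08 from E18.5 to the adult, against -0.01 and -0.05 with TMM, and each change is therefore given relative to the other genes tested. Each member had at least 1838 counts in every library. Only PN14 had replicates, so its SD (n = 2) is the single measure of spread, and the other stages have none.

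Kdr and Flt1 share ligands and followed different courses, so the 250 bases upstream of their RefSeq start sites are shown. The Kdr stretch lies at chr5:75978456-75978705 and the Flt1 stretch at chr5:147726012-147726261, both on the minus strand of GRCm38.p6. Capitals mark GGAA, the core letters of ETS factor sites, or TTCC, the same letters on the other strand.
Kdr: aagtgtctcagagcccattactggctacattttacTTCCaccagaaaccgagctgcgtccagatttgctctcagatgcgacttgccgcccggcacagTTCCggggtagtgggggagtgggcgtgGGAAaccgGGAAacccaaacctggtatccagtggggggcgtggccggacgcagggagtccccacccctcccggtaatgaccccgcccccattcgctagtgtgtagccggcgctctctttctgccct
Flt1: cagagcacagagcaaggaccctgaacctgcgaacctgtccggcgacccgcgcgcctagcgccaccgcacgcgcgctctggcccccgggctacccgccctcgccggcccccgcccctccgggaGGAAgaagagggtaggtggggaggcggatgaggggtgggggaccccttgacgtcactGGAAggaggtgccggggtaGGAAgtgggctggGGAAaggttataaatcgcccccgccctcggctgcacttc
Each stretch held 4 matches, and the Flt1 stretch was richer in G and C (70.4%) than the Kdr stretch (61.6%). GGAA is common: 93.4% of 27025 promoters of that length held it on either strand, as did all 7 of the members in the RefSeq table. Tie1 had 7 matches, a number reached by 3.8% of promoters, and Tek had 2, reached by 76.9%. GATA, the letters of GATA factor sites, was found in 3 of 7 members against 54.1% of promoters. ACGTG, a form of the letters of hypoxia factor sites, was in 0 of 7 against 16.6%. The form GCGTG was not counted, so these numbers do not cover all such sites.

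**Figure D1:**
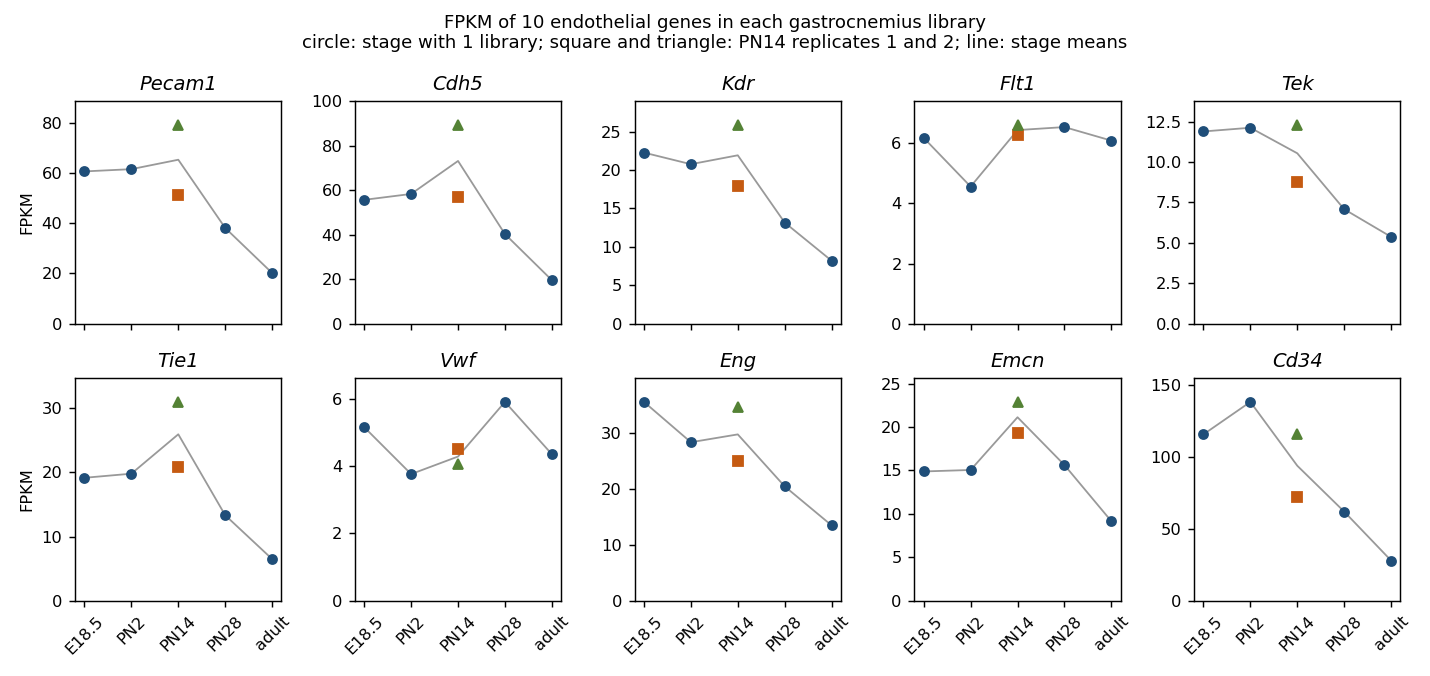
FPKM of each endothelial gene (y axis, linear from 0) by stage (x axis); circles are stages with 1 library, squares and triangles are PN14 replicates 1 and 2, and lines join stage means. In 8 of 10 panels the adult library is the lowest, while Flt1 and Vwf stay between 3.76 and 6.62 FPKM throughout.

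In FPKM, the members fell into a group of 8 that was lowest in the adult and a pair, Flt1 and Vwf, that was not. The share of all genes lowest in the adult was not taken. With library size alone, 7700 of all genes fell from E18.5 to the adult and 1347 rose. The summed FPKM of the 10 members was 347.3 at E18.5, 362.7 by PN2, 283.0 and 421.9 in the PN14 pair, 222.6 by PN28 and 121.0 in adult muscle. The sums at E18.5 and PN2 lay between those of the PN14 replicates, and those at PN28 and in the adult lay below both. FPKM carries no TMM scaling: from E18.5 to the adult the members' median was -1.42 with library size alone, where the median of all genes was -1.08, and -0.39 with TMM, while the summed FPKM of 12 muscle fibre genes in the adult was 3.64 times that at E18.5. In whole muscle, fewer endothelial cells, less endothelial RNA per cell and more RNA from other cells cannot be told apart. PN14 replicate 2 was above replicate 1 in FPKM for 9 of 10 members, Vwf being the exception, and for 7 of 10 in TMM-scaled counts relative to library size (CPM). In the latter, replicate 2 differed from replicate 1 by a median of 0.25 on the log2 scale over the members (-0.41 to 0.42), against 0.01 over all genes tested, which ran from -0.71 at the 5th to 1.04 at the 95th percentile.

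Kdr (chromosome 5, 76328852 to 76374483, minus strand, mm9) was at 22.3 FPKM at E18.5, 20.8 by PN2, 17.9 and 25.9 in the PN14 pair, 13.2 by PN28 and 8.20 in adult muscle. The E18.5 and PN2 values lay between the PN14 replicates, and the adult was at 0.368 of the E18.5 level. Flt1 (chromosome 5, 148373180 to 148537587, minus strand) was at 6.18, 4.56, 6.26 and 6.62, 6.54 and 6.09 FPKM in the same order. Its lowest value was at PN2, outside the PN14 range, and the adult was at 0.985 of E18.5. In TMM CPM, Flt1 was at 26.5 at E18.5, 19.6 by PN2, 46.5 and 41.1 in the PN14 pair, 52.0 by PN28 and 53.3 in adult muscle, with the 4 later libraries above the 2 earlier ones. Kdr in TMM CPM was at 82.9, 77.4, 115.4 and 139.3, 90.7 and 62.1, highest at PN14 and lowest in the adult.

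The ratio of Kdr to Flt1 within a library does not depend on scaling between libraries. It was 3.61 at E18.5, 4.55 by PN2, 2.87 and 3.92 in the PN14 pair (3.39 ± 0.742, SD, n = 2), 2.01 by PN28 and 1.35 in adult muscle. The PN28 and adult ratios were below all 4 of the earlier ratios. This ratio was given no test.

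Tek (chromosome 4, 94405980 to 94541667, plus strand) was at 11.9 FPKM at E18.5, 12.1 by PN2, 8.77 and 12.3 in the PN14 pair, 7.08 by PN28 and 5.37 in adult muscle. Tie1 (chromosome 4, 118143796 to 118162666, minus strand) was at 19.1, 19.8, 20.9 and 30.9, 13.3 and 6.51 FPKM. Tek at E18.5 and PN2 lay within the PN14 range, whereas Tie1 in both PN14 replicates was above every other library. The ratio of Tie1 to Tek was 1.61 at E18.5, 1.63 by PN2, 2.38 and 2.51 in the PN14 pair (2.45 ± 0.0945, SD, n = 2), 1.88 by PN28 and 1.21 in adult muscle. The PN14 pair was above each of the other 4 libraries, and its replicates differed by less than their distance to any of those.

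Cdh5 (chromosome 8, 106625525 to 106668402, plus strand) encodes VE-cadherin, the adhesion protein of endothelial junctions. Its FPKM was 55.6 at E18.5, 58.3 by PN2, 56.8 and 89.4 in the PN14 pair, 40.2 by PN28 and 19.5 in adult muscle. Pecam1 (chromosome 11, 106515531 to 106611942, minus strand) encodes the junctional protein CD31, also carried by platelets and leukocytes, and was at 60.7, 61.6, 51.4 and 79.4, 38.2 and 20.2 FPKM. Both had their 2 lowest values at PN28 and in the adult, and the adult was at 0.351 of E18.5 for Cdh5 and 0.333 for Pecam1. The ratio of Cdh5 to Pecam1 stayed between 0.916 and 1.13 in the 6 libraries.

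Eng (chromosome 2, 32502115 to 32538189, plus strand), the TGF-beta co-receptor endoglin, was at 35.6, 28.4, 25.0 and 34.6, 20.5 and 13.5 FPKM from E18.5 to the adult. Its annotated span overlaps Ak1 on the same strand by 211 bases and Fpgs on the opposite strand by 61, and Ak1 was at 296.8 to 923.5 FPKM, so the assignment of reads in the shared bases is uncertain. The highest Eng value was at E18.5 and the lowest in the adult, while Ak1 was lowest at E18.5 and highest at PN28. Emcn (chromosome 3, 137004031 to 137095149, plus strand), the sialomucin endomucin of capillaries and veins, was at 14.9, 15.1, 19.4 and 22.9, 15.6 and 9.17 FPKM. Both PN14 values of Emcn were above those of the other 4 libraries.

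Cd34 (chromosome 1, 196765015 to 196787486, plus strand) encodes a sialomucin of capillary endothelium that fibroblast-like progenitors and satellite cells carry too. It was the most abundant member in all 6 libraries, at 115.8, 138.4, 72.2 and 115.8, 62.1 and 28.1 FPKM, and its adult level was 0.242 of that at E18.5, the lowest such ratio among the 10. It overlaps Gm16897 on the opposite strand by 5534 bases, and that gene was at 0.16 to 0.35 FPKM. Vwf (chromosome 6, 125496792 to 125636697, plus strand) encodes von Willebrand factor, the platelet-binding protein of endothelial storage granules. Its FPKM was 5.15, 3.76, 4.50 and 4.06, 5.90 and 4.35, highest at PN28 and lowest at PN2, and the adult lay within the PN14 range.

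From PN2 to PN14, 3 of the 10 members, Flt1, Emcn and Tie1, rose on the TMM scale and 0 fell. Flt1 rose by 1.16 on the log2 scale (SE 0.189, adjusted p = 0.0107, edgeR quasi-likelihood test), Emcn by 1.14 (SE 0.174, adjusted p = 0.00914) and Tie1 by 1.03 (SE 0.219, adjusted p = 0.0205). A call required both an adjusted p below 0.05 and a change of 2-fold or more, and 11.8% of all genes tested met this as rises, 11.2% as falls and 23% in either direction. With library size alone, 854 genes rose and 4971 fell, against 1988 and 1896 with TMM. Vwf (0.86, adjusted p = 0.0386) and Eng (0.71, adjusted p = 0.0461) passed the p threshold and not the fold threshold. Cdh5 was at 0.96 (adjusted p = 0.0505), Kdr at 0.72 (adjusted p = 0.0532), Pecam1 at 0.72 (adjusted p = 0.0840), Tek at 0.44 (adjusted p = 0.126) and Cd34 at 0.08 (adjusted p = 0.850). All 10 members had a positive log2 fold change, with a median of 0.79 against -0.01 over all genes tested. In TMM CPM, both PN14 replicates were above PN2 for 9 of 10 members, Cd34 being the exception, and in FPKM for 4 of 10. The share of all genes with both replicates above PN2 was not taken. With TMM, 49.31% of all genes tested had a positive log2 fold change. With library size alone, 0 of the 10 members were called, their median was 0.14 against -0.66 over all genes, and Tek and Cd34 turned to -0.20 and -0.56. Among genes with a mean of 1 CPM or more, Tie1 was at 0.99 and was not called, which left 2 members. Without PN14 replicate 2, Tie1 was at 0.86, Vwf at 1.04 and Cd34 at -0.15, and without replicate 1 these were 1.17, 0.64 and 0.27.

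**Figure D2:**
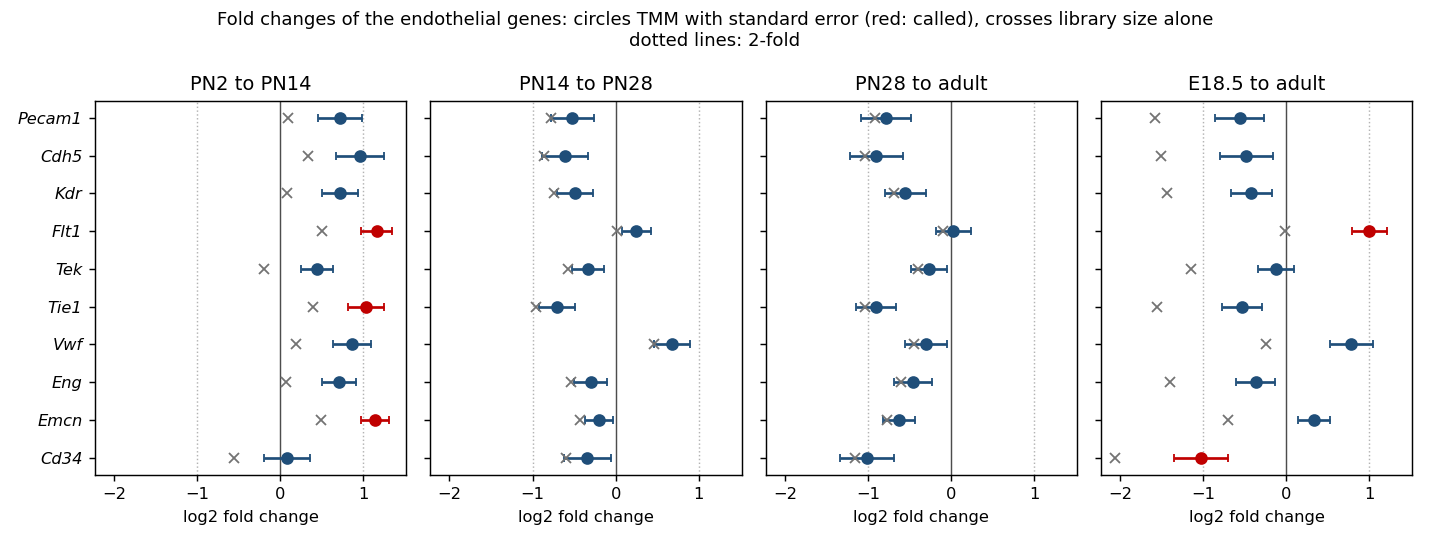
Log2 fold change (x axis) of the endothelial genes (y axis) in 4 comparisons; circles are TMM values with SE bars, red where called, crosses are values with library size alone, and dotted lines mark 2-fold. Flt1, Tie1 and Emcn are red from PN2 to PN14, Flt1 and Cd34 from E18.5 to the adult, and crosses lie left of circles throughout.

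In the remaining intervals between neighbouring stages, 0 of 10 members were called by the edgeR quasi-likelihood test. From E18.5 to PN2 the members lay between -0.45 for Vwf and 0.25 for Cd34, with 0.0296% of all genes called. At an unadjusted p under 0.05 there were 0 members, against 6.64% of all genes. From PN14 to PN28, Vwf was at 0.68 (adjusted p = 0.548) and Flt1 at 0.25 (adjusted p = 0.716), while the other 8 were negative, down to -0.71 for Tie1 (adjusted p = 0.538). Calls took in 0.0178% of all genes, and an unadjusted p under 0.05 was found for 2 of the 10 members and 8.41% of all genes. From PN28 to the adult, 9 of 10 were negative, led by Cd34 at -1.01 (SE 0.326, adjusted p = 0.196), Cdh5 at -0.90 (adjusted p = 0.224) and Tie1 at -0.90 (adjusted p = 0.152), and Flt1 was at 0.03. The median was -0.59 against -0.01 over all genes, of which 0.521% were called. For 5 of the 10 members the unadjusted p was under 0.05, as it was for 18.3% of all genes. DESeq2's Wald test called 1 member from PN28 to the adult, Cd34, and 0 in the other 2 intervals, and edgeR's exact test called 0 in each.

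From E18.5 to the adult, Cd34 fell by 1.03 on the log2 scale (SE 0.326, adjusted p = 0.0392, edgeR quasi-likelihood test) and Flt1 rose 2.01-fold (log2 SE 0.209, adjusted p = 0.00978). Among all genes 44.9% were called, 21.4% as rises and 23.6% as falls, against 2 of the 10 members. Vwf was at 0.78 (adjusted p = 0.0447), short of the fold threshold, and Emcn at 0.33 (adjusted p = 0.193). Tek was at -0.12, Eng at -0.37, Kdr at -0.42, Cdh5 at -0.48, Tie1 at -0.53 and Pecam1 at -0.56, with adjusted p from 0.111 to 0.658. The Flt1 call sat on the 2-fold line and was lost, at 0.92 to 0.99, with DESeq2's size factors or Wald test, no filter or the stricter filter. Flt1 was at -0.02 with library size alone, as Vwf was at -0.24 and Emcn at -0.70. On that scale the members' median was -1.42 against -1.08 over all genes, and 7 of 10 members fell, as did 7700 of all genes while 1347 rose, against 3978 and 3606 with TMM.

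**Figure D3:**
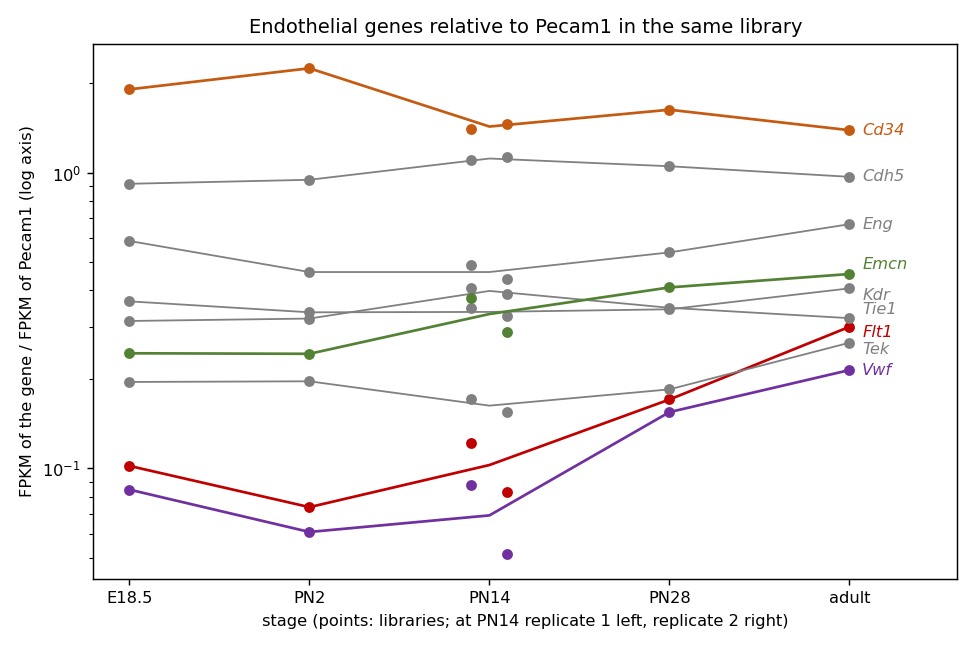
FPKM of each endothelial gene divided by that of Pecam1 in the same library (y axis, log scale) by stage (x axis); points are libraries, with PN14 replicate 1 to the left of replicate 2, and lines join stage means. Flt1 and Vwf climb from 0.102 and 0.0848 at E18.5 to 0.301 and 0.215 in the adult.

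Within a library, the composition of the members moved toward Flt1, Vwf and Emcn and away from Cd34. Flt1 made up 1.78% of the summed member FPKM at E18.5, 1.26% by PN2, 2.21% and 1.57% in the PN14 pair, 2.94% by PN28 and 5.03% in adult muscle. Vwf made up 1.48%, 1.04%, 1.59% and 0.962%, 2.65% and 3.59%. For both, PN28 and the adult were above all 4 earlier libraries. Emcn went from 4.29% at E18.5 to 7.58% in the adult, with its PN14 values at 6.84% and 5.43%. Cd34 made up 33.3%, 38.2%, 25.5% and 27.4%, 27.9% and 23.2%, and its 2 highest shares were the 2 earliest. Pecam1, at 16.7% to 18.8%, and Kdr, at 5.73% to 6.78%, varied least in relation to their size. These shares carry no test.

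The likeness of profiles was measured as the root mean square difference over the 6 libraries between log2 TMM CPM values centred on their own means. Cdh5 and Tie1 were the closest pair of members, at 0.049, and each was the nearest gene to the other among all 11669 genes with at least 1 CPM in every library. Among the members alone, Pecam1 and Kdr were at 0.100 from each other, Eng was nearest to Kdr (0.119), Tek to Eng (0.124) and Flt1 to Vwf (0.184). Over all genes, each of these was closer to a gene that is not a member. Those distances were 0.058 for Pecam1, 0.064 for Kdr, 0.037 for Eng, 0.061 for Tek, 0.060 for Flt1 and 0.084 for Vwf. Flt1 and Vwf stood at 0.549 and 0.590 from the members' median profile, ranks 6164 and 6991 of 11669, whereas Kdr stood at 0.069 (rank 4). That profile was built from the members, Kdr among them, so a member's closeness to it is partly built in. Among genes that are not members, those near the median profile included Mettl15 (0.061), Pdgfrb (0.062), Map4k2 (0.067), Pced1b (0.075), She (0.080), Gimap5 (0.082), Smagp (0.083), Itpkb (0.084) and S100a16 (0.088). Of these, She is a known endothelial gene and Pdgfrb the receptor of pericytes, the cells that wrap capillaries.

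Vegfa, Vegfb and Angpt1, which encode ligands of these receptors, rose on the TMM scale, and Pgf, another Flt1 ligand, named after its values were seen, fell. Vegfa, the main ligand of both VEGF receptors, was at 31.8 FPKM at E18.5, 24.8 by PN2, 46.2 and 55.7 in the PN14 pair, 39.4 by PN28 and 36.3 in adult muscle. It rose by 1.68 on the log2 scale from PN2 to PN14 (SE 0.225, adjusted p = 0.00704, edgeR quasi-likelihood test). Within a library, Vegfa to Kdr went from 1.43 at E18.5 and 1.2 at PN2 to 2.57 and 2.15 in the PN14 pair, 2.99 by PN28 and 4.43 in adult muscle, while Vegfa to Flt1 stayed between 5.15 and 8.42. Vegfb, a ligand of Flt1 and not of Kdr, rose by 1.83 from E18.5 to the adult (SE 0.210, adjusted p = 0.00188), from 35.9 to 64.1 FPKM. Pgf fell by 1.07 from PN2 to PN14 (SE 0.271, adjusted p = 0.0324) and by 1.13 from E18.5 to the adult (SE 0.329, adjusted p = 0.0303), from 5.45 FPKM at E18.5 to 1.24 in the adult. Angpt1, the activating ligand of Tek, rose by 1.91 from E18.5 to the adult (SE 0.267, adjusted p = 0.00285). The ratio of Angpt1 to Angpt2, a ligand picked here after its values were seen, was 0.644 at E18.5, 0.881 by PN2, 2.46 and 1.8 in the PN14 pair, 2.35 by PN28 and 4 in adult muscle. Of the 16 ligands, co-receptors and related receptors listed, 14 were tested, and 3 rose and 1 fell from PN2 to PN14, while 4 rose and 2 fell from E18.5 to the adult. These counts were 1 and 1, then 0 and 8, with library size alone, where 854 of all genes rose and 4971 fell, then 1347 and 7700. With TMM, 23% of the 16882 genes tested were called from PN2 to PN14 and 44.9% from E18.5 to the adult. The TMM counts of this list stood near those shares.

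**Figure D4:**
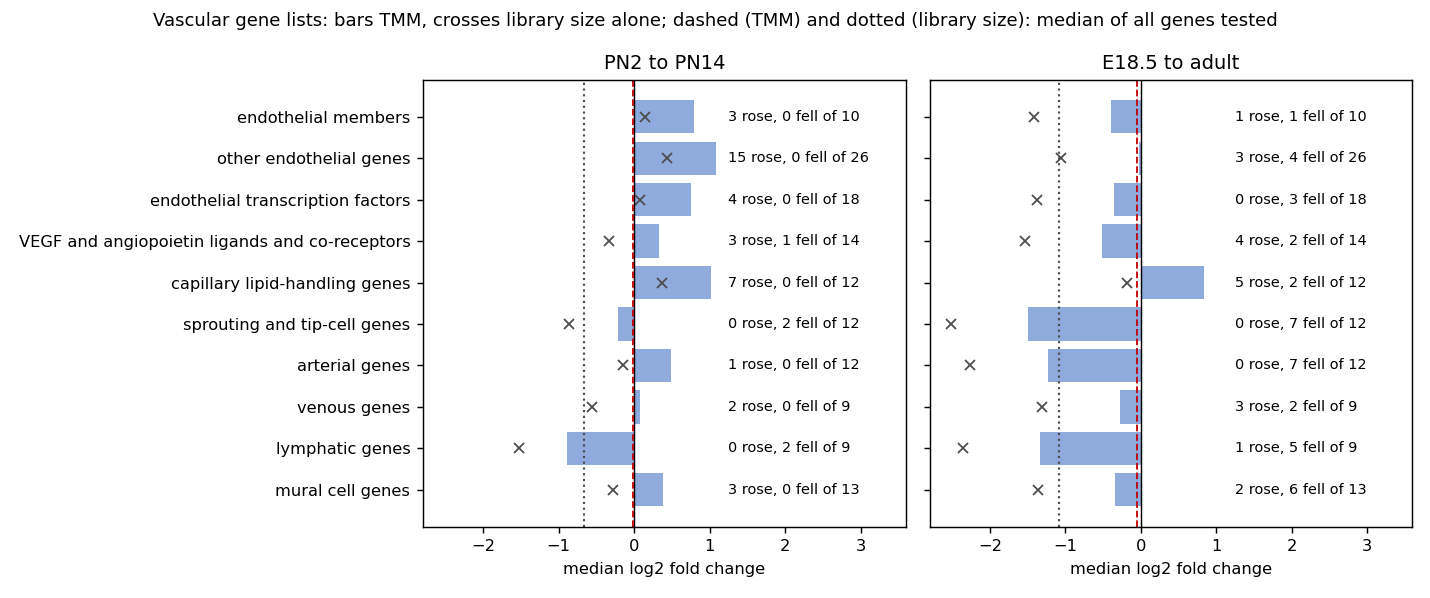
Median log2 fold change (x axis) of vascular gene lists (y axis) from PN2 to PN14 and from E18.5 to the adult; bars are TMM values, crosses library size alone, dashed and dotted lines the medians of all genes tested on those scales, and the text gives genes called. The 10 members are at 0.79 and -0.39, and the sprouting genes at -0.22 and -1.50.

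Among all genes tested, 11.8% rose and 11.2% fell from PN2 to PN14 with TMM. From E18.5 to the adult, 21.4% rose and 23.6% fell. With library size alone, 854 of the 16882 rose and 4971 fell, then 1347 and 7700. The counts of the lists below are to be read beside these shares. Other endothelial genes were set beside the members. Of 26 such genes, 15 rose and 0 fell from PN2 to PN14 (median 1.08), and 3 rose and 4 fell from E18.5 to the adult (median -0.03). Scaled by library size alone, the first counts were 2 and 1, and the second 1 and 14. Tspan8 rose by 7.39 from E18.5 to the adult (SE 0.910, adjusted p = 0.00212, edgeR quasi-likelihood test). Its FPKM was 0.59 at E18.5, 0.45 by PN2, 15.61 and 6.08 in the PN14 pair, 29.97 by PN28 and 49.05 in adult muscle. This course, highest in the adult, was unlike the list's median of -0.03, and the cells that carry Tspan8 here were not tested. By the same test, Eltd1 rose by 1.88 from PN2 to PN14 (adjusted p = 0.00431) and Aplnr, the apelin receptor, by 1.55 (adjusted p = 0.0378). Aplnr was at 18.1 FPKM at PN2 against 20.8 and 48.5 in the PN14 pair. Of 18 endothelial transcription factors, 4 rose and 0 fell from PN2 to PN14, among them Tcf15 at 1.98 and Sox17 at 1.57, and 0 rose and 3 fell from E18.5 to the adult, among them Hey1 at -1.59. A list of 12 capillary lipid-handling genes also held transcription factors, Tcf15 among them, the carbonic anhydrase gene Car4 and the water channel gene Aqp1. Of the 12, 7 rose and 0 fell from PN2 to PN14, with Car4 at 2.70 and Aqp1 at 2.14. Of its lipid genes, named after their values were seen, Fabp4 (1.03) and Gpihbp1 (1.21) rose. Cd36 (0.61), Lpl (0.36) and Fabp5 (-0.49) were not called. From E18.5 to the adult, 5 of the 12 rose and 2 fell, with Fabp5 at -3.41. The median of that list from E18.5 to the adult turned from 0.84 to -0.19 with library size alone, and 1 rose and 2 fell, while 0 rose and 14 fell among the transcription factors. From PN2 to PN14 on that scale, 4 rose and 2 fell of the 12 capillary genes, and 1 rose and 1 fell of the 18 transcription factors. Of 12 genes of sprouting vessels, 0 rose and 7 fell from E18.5 to the adult, with Apln at -3.34, Nid2 at -2.92 and Mcam at -1.67. Of 12 arterial genes, 7 fell over that span, with Gja5 at -2.78, Fbln5 at -1.83 and Hey2 at -1.83. Of 9 venous genes 3 rose and 2 fell, with Selp at 3.78, Lrg1 at 3.23 and Vcam1 at -2.49. Selp was low throughout, at 0.15 FPKM at E18.5 and 1.02 in the adult, and Vcam1 is also in the satellite cell list. Of 9 lymphatic genes 1 rose and 5 fell, with Pdpn at -2.62, Lyve1 at -1.96 and Prox1 at -1.78. The 3 not called, named after their values were seen, were Ccl21a at 0.96, Flt4 at -0.53 and Reln at -1.14. Of 13 mural cell genes 2 rose and 6 fell, with Cnn1 at -2.99, Cspg4 at -2.77 and Acta2 at -2.38. With library size alone, from E18.5 to the adult, 10 sprouting genes, 11 arterial, 5 venous, 7 lymphatic and 8 mural cell genes fell, and 2 venous genes and 1 mural cell gene rose.

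Markers of other cells that carry some of the members moved over the same stages, and their part in the members' values was not tested. Among all genes tested, 21.4% rose and 23.6% fell from E18.5 to the adult with TMM. Beside Vwf, Pecam1 and Cd34, the 8 megakaryocyte and platelet genes summed to 45.7 FPKM at E18.5 and 8.63 in the adult, 6 of them stayed under 1 FPKM in every library, and of the 7 tested 1 rose and 1 fell from E18.5 to the adult. Pf4, which fell by 1.58 on the log2 scale, made up most of those sums, at 43.4 and 7.13 FPKM, and Gp1ba, named after its values were seen, rose by 2.01 (adjusted p = 0.0244) and stayed under 1 FPKM. Gp6 was listed at 0 in some libraries. Beside Pecam1, the 12 leukocyte and macrophage genes summed to 128.6 FPKM at E18.5, 115.1 by PN2, 54.9 and 74.4 in the PN14 pair, 68.2 by PN28 and 57.8 in adult muscle, and 5 of 12 fell and 1 rose from E18.5 to the adult, with Mrc1 at -1.92, Fcer1g at -1.51 and Emr1 at -1.47. Beside Cd34, the 12 fibroblast genes summed to 6279, 5197, 1846 and 2195, 2000 and 602.0 FPKM, and 6 fell and 2 rose of the 11 tested, with Col1a1 at -4.45, Col3a1 at -4.45 and Col1a2 at -3.39. The 8 satellite cell genes summed to 146.8 FPKM at E18.5 and 40.1 in the adult, and 5 fell over that span, with Myf5 at -3.60 and Pax7 at -3.14. Red cell genes fell in 7 of 7 cases, with Hbb-b2 at -4.07, Hba-a1 at -3.52 and Hbb-b1 at -3.44. Proliferation genes fell in 12 of 12 cases, with Ccnb1 at -8.26, Bub1 at -8.25 and Top2a at -7.48. The 12 muscle fibre genes summed to 36899 FPKM at E18.5, 41194 by PN2, 144113 and 118253 in the PN14 pair, 153863 by PN28 and 134321 in adult muscle. From E18.5 to the adult, 5 of 12 were called as rises, with Myh4 at 9.13, Myh1 at 5.79 and Ryr1 at 3.89. All 12 had a positive log2 fold change, with a median of 3.19, and 9 rose with library size alone. Ckm, named after its values were seen, was at 3.13 with an SE of 1.67 and was not called. On the scale of library size, 8 leukocyte genes and 7 fibroblast genes fell and 0 of either rose. Of the 16882 genes tested, 7700 fell and 1347 rose on that scale.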

How the data were processed

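RNA was sequenced from 6 gastrocnemius libraries. The authors aligned paired-end reads to mm9 with TopHat 2.0.5, quantified RefSeq models by RSEM, and deposited expected counts and FPKM for 23367 entries. The expected counts deposited are not normalized, and the FPKM deposited by the authors are scaled to gene length and library. Whether counting used strand is not given in the sources used here.

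After rounding, edgeR 4.0.16 (R 4.3.3) was run with TMM, a stage-wise filterByExpr that left 16882 genes, and its quasi-likelihood test in 1 fit over all 6 libraries and 5 stages, Benjamini-Hochberg adjusted over all genes. Calls needed an adjusted p below 0.05 and 1 or more log2 units of change. There was 1 residual degree of freedom, so the other stages are assumed to vary as PN14 does (common biological coefficient of variation 0.188). A count of 3 was worth 0.019 to 0.0239 CPM. In simulated data, the test from PN2 to PN14 (16279 genes) recovered 87 of 100 genes changed by 1.5 and 100 of 100 changed by 3 on the log2 scale, with 7 false calls of 194. From PN28 to the adult (16264 genes) it recovered 74 and 99 of 100, with 5 false calls of 178. The simulation gave every stage the spread fitted to these data and changed only those genes. In the real data, 3884 genes were called from PN2 to PN14, and most stages have no measured spread. The simulated rates therefore cannot show how many real calls are false.

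The alternatives were library size alone, DESeq2's size factors, DESeq2's Wald test (1.42.0), edgeR's exact test, no filter, a mean of at least 1 CPM, either PN14 replicate left out, and counts for FPKM in the shares. All 10 members are named in the comparisons. Of each other list, up to 3 genes are named, those with the largest log2 fold change in size among genes called in any of PN2 to PN14, PN28 to adult or E18.5 to adult, with at least 1 FPKM in some library. Genes most like the members are from the 10 nearest among non-members, of which 1 is not reported here. Some genes are in more than 1 list. The members and lists were chosen with earlier results of these data known. Gene positions came from GENCODE M1 (mm9). Upstream sequences came from the RefSeq promoter table (GRCm38.p6), which matched 7 of 10 members and did not hold Pecam1, Cdh5 or Vwf. Tables and figures were made with Python 3.11.15, numpy 2.4.6, pandas 2.3.3 and matplotlib 3.10.9.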

Additional observations from a re-analysis of the deposited data

How the results depend on the processing

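With library size alone, the members called were 0 from PN2 to PN14, 1 from PN28 to the adult and 7 from E18.5 to the adult, against 3, 0 and 2 with TMM. Over all genes, 141 rose and 727 fell from PN28 to the adult, against 27 and 61, and 94 rose and 168 fell from PN14 to PN28, against 3 and 0. The members' median was then 0.14 between PN2 and PN14, -0.59 between PN14 and PN28 and -1.42 between E18.5 and the adult. The signs turned for Tek (-0.20) and Cd34 (-0.56) from PN2 to PN14, for Flt1 (-0.10) from PN28 to the adult, and for Flt1 (-0.02), Vwf (-0.24) and Emcn (-0.70) from E18.5 to the adult. From E18.5 to the adult, 1 member was called with DESeq2's size factors, DESeq2's Wald test, a mean CPM of 1 or more as the filter, or no filter, and 1 was called from PN28 to the adult by the Wald test. Tie1 was at 0.99 from PN2 to PN14 with the stricter filter, which left 2 members called. Of the 50 log2 fold changes, edgeR's exact test left all 50 on the same side of the thresholds. Counts of called genes in other lists also depended on the setting. Of the muscle fibre genes, 2 were called from PN2 to PN14 in the main fit. That count was 10 with library size alone, and 11 with DESeq2's Wald test or edgeR's exact test. Shares of the members' sum from counts gave adult to E18.5 ratios of 2.63 for Flt1, 2.26 for Vwf, 1.64 for Emcn and 0.642 for Cd34. No paired analysis was possible because the stages came from different animals or pools. Without either PN14 replicate no spread remains, so those values carry no test. With 1 library at 4 of 5 stages, differences between animals, pools, sequencing lanes (a separate one per column header) and stages cannot be told apart.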
